A study of Anas platyrhynchos with 3 samples.

Results

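Bill skin of Pekin duck (Anas platyrhynchos) embryos was profiled by poly(A) RNA sequencing, and the Wnt pathway genes described here are the 55 of 14938 genes in the table whose symbols name Wnt ligands, Frizzled receptors, co-receptors, R-spondins, LGR receptors, secreted antagonists, Dishevelled proteins, members of the β-catenin destruction complex and TCF/LEF factors. They were matched by symbol and not by level, though the choice was made with earlier results of these data known. The study deals with touch-sensing lamellar cells of Pacinian and Meissner corpuscles, which lie in this skin. Embryos were taken at embryonic day 24 to 26 from eggs kept at 37 °C, after the inner shell membrane was broken and 24 to 48 hours short of hatching. The labels give 1 group of 3 biological replicates with no treatment, genotype or second tissue, so genes could only be set against one another within libraries. Whether embryos were pooled, and their sex, is not stated. LRP5, DVL2, DKK1, DKK4, RSPO4, WNT2 and PORCN were not analysed here.

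Wnt proteins are secreted, lipid-carrying signals. In the β-catenin branch a Wnt bridges a Frizzled receptor and an LRP co-receptor, Dishevelled is recruited, and the complex of Axin, APC and the kinase GSK3β no longer marks β-catenin for breakdown, so that β-catenin can act with TCF/LEF factors on target genes. Other Wnts act through Frizzled and Dishevelled, or through the ROR and RYK receptors, on cell polarity and movement without β-catenin. R-spondins and their LGR receptors protect Frizzled from removal, whereas SFRP, WIF1, DKK and NOTUM proteins restrain the signal outside the cell. In bird skin the pathway takes part in laying out feather germs and in the exchange between epidermis and dermis.

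The 3 libraries held 25268141 to 32247700 counted reads, and 10605 genes reached 1 FPKM in every library, the minimum for testing (FPKM is a read level scaled by gene length and library size). Skin markers were abundant. The summed level of the 17 measured keratinocyte markers, of 23 listed, was 5813, 4913 and 5612 FPKM in replicates 1, 2 and 3, and that of the 19 measured dermal fibroblast markers, of 22 listed, was 4503, 8002 and 4690 FPKM. Replicate 2 was thus the library highest in fibroblast markers and lowest in keratinocyte markers. Markers of vessels, nerve, Merkel cells, cartilage, muscle, pigment cells and white blood cells summed to 13.3 to 910.1 FPKM per list and library, and 2 of 8 skeletal muscle markers had no read. In whole skin, fewer cells of a type and less RNA per cell cannot be told apart.

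Most Wnt pathway genes had a moderate level. Over all 55 the median was 7.93 FPKM, beside 7.68 for the 14343 genes with reads, and means ran from 0.0399 FPKM for WNT8A to 246 FPKM for CTNNB1. All 55 had reads in at least 2 libraries, and 10 were under the minimum. In limma's moderated test against the median gene of the same library (13.2 FPKM on average), 12 of the 55 were above it, 22 were below it and 11 were not apart from it at an adjusted p of 0.05. Of the 45 members tested, 26.7% were above and 48.9% below. Of all 10605 genes tested, 43.7% were above and 43.6% below, so being apart from the median gene is the common outcome and only its direction and size describe a gene. The minimum sets the reference. Without one the median gene was at 7.54 FPKM and 25 members were above and 24 below, beside 44.5% and 45% of all genes tested. With a minimum of 0.1 FPKM it was at 10.04 FPKM with 19 above and 25 below, beside 44% and 43.7% of all genes tested.

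**Figure D1:**
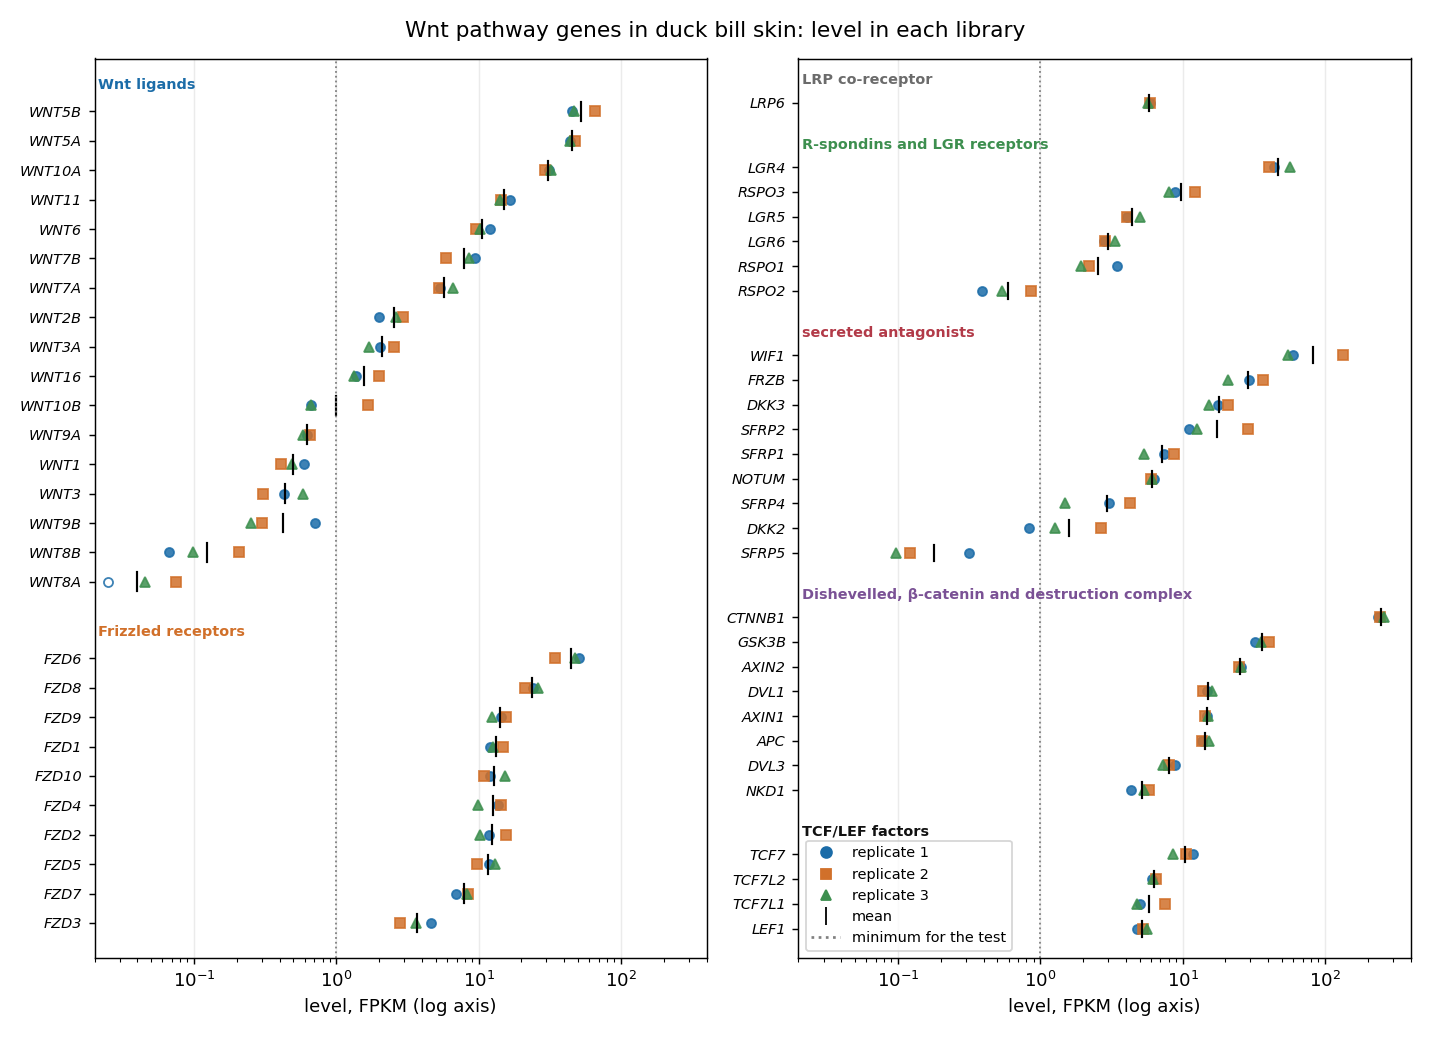
Level of each of the 55 Wnt pathway genes in FPKM (log axis) in bill skin, by role. Blue circles, orange squares and green triangles are replicates 1, 2 and 3, black ticks are means, the dotted line is the minimum of 1 FPKM, and the open circle is a library in which WNT8A had no read. Ligand means span from 0.0399 to 52.4 FPKM, while those of the 10 Frizzled receptors lie between 3.70 and 44.4 FPKM.

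Ligand transcripts were dominated by WNT5B, WNT5A and WNT10A. WNT5B and WNT5A encode ligands best known for signalling without β-catenin, and WNT10A encodes an epidermal ligand whose human gene is mutated in defects of teeth, hair and nails. WNT5B was at 45.2, 65.4 and 46.6 FPKM in replicates 1, 2 and 3 and was highest in replicate 2. WNT5A was at 43.9, 47.3 and 43.9 FPKM and overlapped in range with WNT5B. Both were above the median gene in limma's test, WNT5B by 1.96 ± 0.14 (log2, SE, n = 3; adjusted p = 2.36e-05) and WNT5A by 1.76 ± 0.09 (adjusted p = 6.81e-06). WNT10A was at 31.2, 29.3 and 32.3 FPKM, below both in every library, and stood 2.32-fold above the median gene (log2 1.21 ± 0.09 SE, adjusted p = 2.94e-05). WNT5A and WNT5B together made up 51.8, 59.8 and 53.0% of the summed ligand FPKM, and with WNT10A and WNT11 the share was 80.9% ± 1.86 (SD, n = 3).

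A second tier of ligands lay near or below the median gene. WNT11, which steers cell movement in vertebrate embryos, was at 16.7, 14.5 and 14.2 FPKM and not apart from the median gene (log2 0.19 ± 0.10 SE, limma adjusted p = 0.110). With no minimum it was above the median gene (log2 0.99, limma adjusted p = 0.000408), and at a minimum of 5 FPKM below it (-0.414, 0.00451). WNT6, an ectodermal ligand, was at 11.96, 9.62 and 10.3 FPKM and below the median gene (log2 -0.32 ± 0.10 SE, adjusted p = 0.0230). That call was lost without replicate 2 (log2 -0.24, limma adjusted p = 0.0994) or replicate 3 (-0.28, 0.120). It was also lost in edgeR's quasi-likelihood test on counts (adjusted p = 0.0679). With no minimum WNT6 was above the median gene (log2 0.483, limma adjusted p = 0.00842). WNT7B, an epithelial ligand, was at 9.36, 5.90 and 8.52 FPKM, lowest in replicate 2. Its paralog WNT7A, known from the dorsal ectoderm of the chick limb, was at 5.33, 5.27 and 6.66 FPKM and overlapped with it in range. Both were below the median gene in limma's test, by -0.76 ± 0.14 (adjusted p = 0.00257) and -1.20 ± 0.11 (adjusted p = 6.98e-05) on the log2 scale.

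The remaining ligands were low. WNT2B at 2.53 ± 0.486, the β-catenin-activating ligand WNT3A at 2.10 ± 0.424 and WNT16 at 1.56 ± 0.367 FPKM (SD, n = 3) each overlapped in range with the next lower ligand, and all were below the median gene. WNT10B, a paralog of WNT10A, was under the minimum with 0.666, 1.66 and 0.666 FPKM from 48, 117 and 39 reads, and stood out in replicate 2. WNT9A had 76 to 103 reads, WNT3 22 to 35, WNT9B 9 to 31 and WNT1 10 to 15 per library, with means of 0.619, 0.439, 0.419 and 0.497 FPKM. The mean of WNT9B was 0.276 FPKM without replicate 1. WNT8B had 5, 15 and 6 reads. WNT8A had 0, 4 and 2 reads, where 3 reads at the lowest depth make 0.0674 FPKM, so its level could not be told from 0 at this depth; its mean was 0.0598 FPKM without replicate 1 and 0.0225 without replicate 2.

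The order of the ligands depends on the gene lengths in the authors' annotation. These lengths, worked back from count and FPKM, ran from 798 bases for WNT1 to 8695 bases for WNT3A. By reads alone WNT11 ranked first with a mean of 2686, on a length of 6025 bases, ahead of WNT5A with 1841 and WNT5B with 1757 on 1392 and 1136 bases. WNT3A ranked 6 by reads and 9 by FPKM, and WNT6 ranked 7 and 5. Whether each length matches the transcripts used in bill skin was not tested.

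A further ligand of the role lists, WNT4, and the secretion factor WLS, which carries Wnt proteins to the cell surface, are held in the table under numbered identifiers and were named through NCBI RefSeq's gene table. WNT4 was at 10.6, 7.17 and 10.8 FPKM, lowest in replicate 2 as WNT7B was, and below the median gene (log2 -0.49 ± 0.14 SE, limma adjusted p = 0.0148); without replicate 2 the difference was -0.29 (adjusted p = 0.0461). WLS was at 128, 124 and 119 FPKM. It stood 9.28-fold above the median gene (log2 3.21 ± 0.09 SE), was higher than every ligand in all 3 libraries, and varied by a coefficient of variation of 3.62%. These genes are outside the 55 and enter no count of them.

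**Figure D2:**
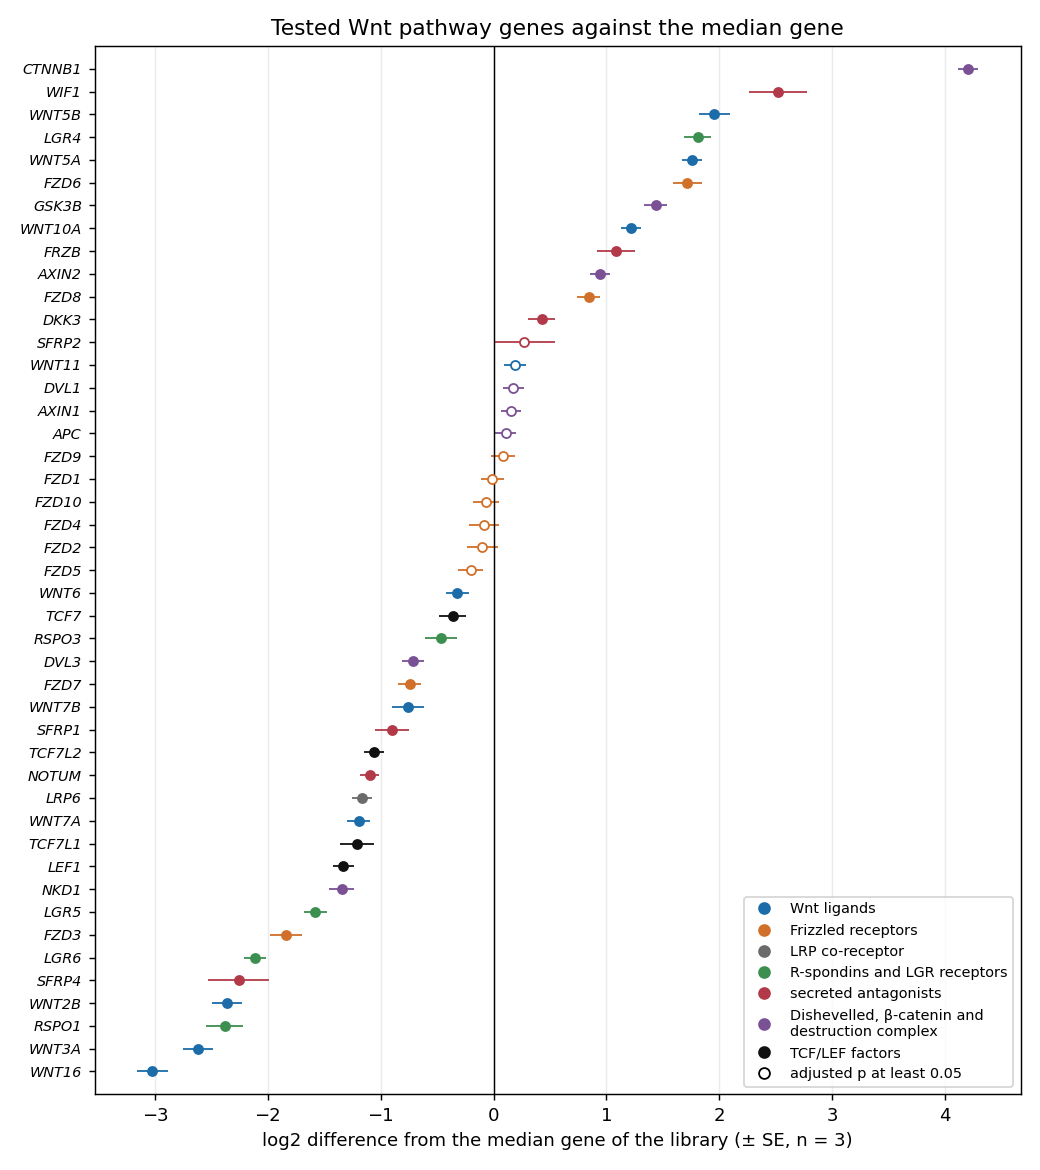
Log2 difference of the 45 tested Wnt pathway genes from the median gene of the library, as the mean over 3 libraries with its SE from limma; filled points passed an adjusted p of 0.05, open points did not, and colours mark roles. CTNNB1 lies farthest above at 4.21 and WNT16 farthest below at -3.03.

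All 10 Frizzled genes, which encode the seven-pass Wnt receptors, passed the minimum, and FZD6 led them. FZD6, which in mice directs hair orientation, was at 50.9, 34.5 and 47.6 FPKM and lowest in replicate 2. FZD8 was next at 24.1, 21.3 and 26.3 FPKM, below FZD6 in every library by ratios of 2.11, 1.62 and 1.81. Both were above the median gene in limma's test, FZD6 by 1.72 ± 0.13 (log2, SE; adjusted p = 3.46e-05) and FZD8 by 0.84 ± 0.10 (adjusted p = 0.000271). They made up 46.3, 37.7 and 46.3% of the summed Frizzled FPKM.

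A block of 6 receptors followed within a narrow range and overlapped from each to the next. FZD9 at 14.1 ± 1.53, FZD1 at 13.2 ± 1.44, FZD10 at 12.8 ± 2.28, FZD4 at 12.6 ± 2.38, FZD2 at 12.5 ± 2.68 and FZD5 at 11.6 ± 1.65 FPKM were not apart from the median gene. This holds at the minimum of 1 FPKM. With no minimum limma called all 6 above the median gene (log2 0.601 to 0.887), and at 5 FPKM all 6 below it (-0.518 to -0.804). FZD7, which with FZD1 and FZD2 forms a receptor subfamily, was at 6.96, 8.45 and 8.30 FPKM and below it (log2 -0.74 ± 0.10 SE, limma adjusted p = 0.000592). FZD3, the closest relative of FZD6 and known in mice for guiding axons, was the lowest at 4.61, 2.82 and 3.65 FPKM (log2 -1.84 ± 0.14 SE, adjusted p = 3.83e-05). Some relatives therefore stood at different levels and others did not. FZD6 was the highest receptor and FZD3 the lowest, and both were lowest in replicate 2. FZD1 and FZD2 lay close, with ratios of 1.025, 0.956 and 1.234, and FZD7 was below both. All of FZD1, FZD2 and FZD7 were highest in replicate 2, but so were FZD4 and FZD9. Of the 10 Frizzled genes 5 were highest in that library and 5 lowest, so neither pattern is particular to these relatives.

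LRP6, the co-receptor that is phosphorylated when Wnt binds, was at 5.88, 5.95 and 5.71 FPKM from 1540 to 1953 reads. It was below the median gene (log2 -1.17 ± 0.09 SE, limma adjusted p = 3.40e-05) and among the steadiest members, with a coefficient of variation of 2.09% where counting reads alone gives 2.35%. In every library its FPKM was lower than that of each Frizzled gene other than FZD3. That order depends on its implied length of 10520 bases. By reads alone FZD6 was higher in every library and FZD4 in replicates 1 and 2, and the other Frizzled genes were lower than LRP6.

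**Figure D3:**
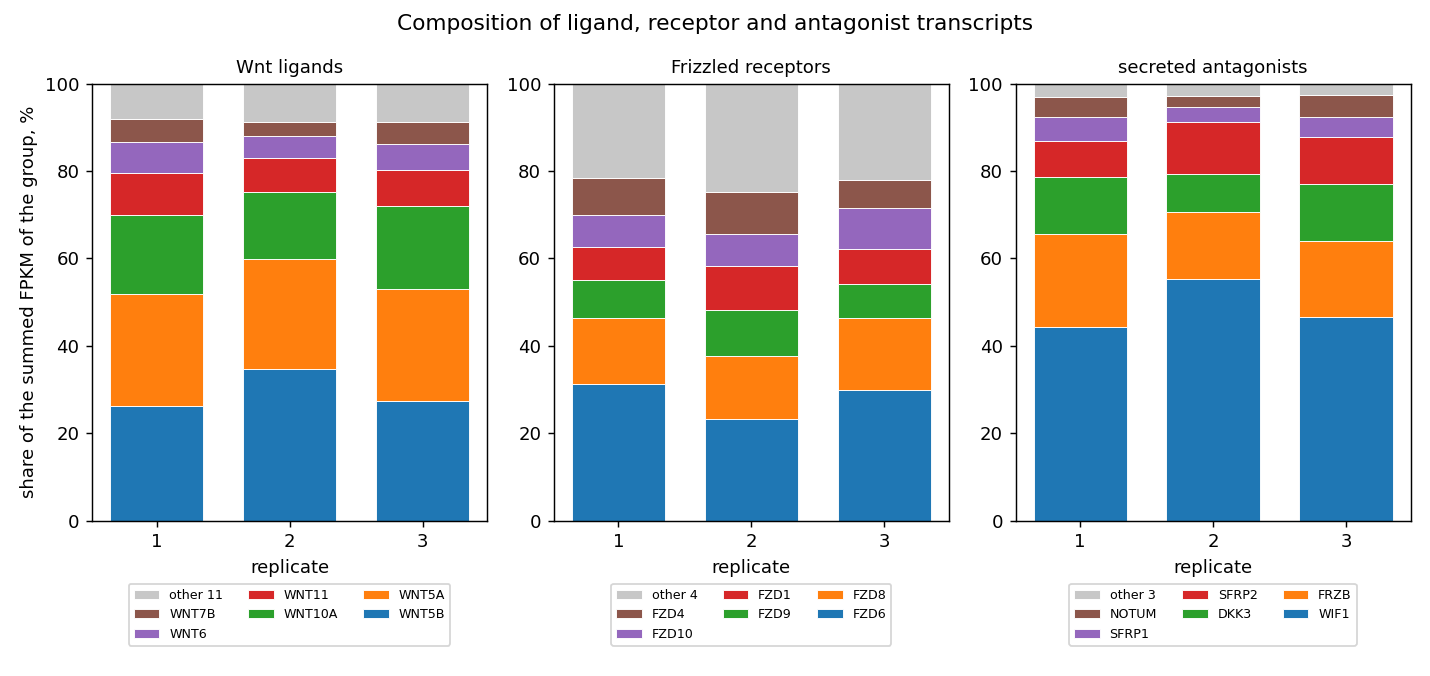
Share of each gene in the summed FPKM of the 17 ligands, the 10 Frizzled receptors and the 9 secreted antagonists (stacked to 100%) in each of the 3 libraries; grey collects the lower genes. WNT5B and WNT5A fill 51.8 to 59.8% of the ligand bar, FZD6 and FZD8 37.7 to 46.3% of the Frizzled bar, and WIF1 44.3 to 55.4% of the antagonist bar.

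LGR4 was the main R-spondin receptor by level. It was at 44.1, 40.6 and 56.5 FPKM, highest in replicate 3, and stood 3.50-fold above the median gene (log2 1.81 ± 0.12 SE, limma adjusted p = 1.80e-05). LGR5 and LGR6, which mark stem cells of mouse hair follicles, were far lower. LGR5 was at 4.081, 4.060 and 5.001 FPKM and LGR6 at 2.81, 2.84 and 3.33 FPKM, both highest in replicate 3 like LGR4 and both below the median gene (log2 -1.58 ± 0.10 and -2.11 ± 0.10 SE). The ratio of LGR4 to LGR5 was 10.8, 9.996 and 11.3.

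Of the R-spondin ligands, RSPO3 was the highest at 8.79, 12.2 and 8.08 FPKM. It was below the median gene (log2 -0.47 ± 0.14 SE, limma adjusted p = 0.0199), but without replicate 1 (log2 -0.39, adjusted p = 0.115) or replicate 3 (-0.32, 0.118) this call was lost. RSPO1 was at 3.44, 2.21 and 1.95 FPKM and highest in replicate 1, which sets it apart from RSPO3, highest in replicate 2. RSPO2, which in dogs is tied to facial hair, was under the minimum at 0.390, 0.856 and 0.540 FPKM from 72, 155 and 81 reads. The ratio of RSPO3 to RSPO1 was 2.55, 5.55 and 4.15, above 1 in every library but with a wide spread.

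Secreted antagonists included the highest extracellular member and the 3 tested members with the largest spread between libraries. WIF1, which binds Wnt proteins directly, was at 60.2, 135 and 54.9 FPKM from 3476, 7607 and 2574 reads. Replicate 2 was more than double each of the others, and WIF1 was above the median gene in limma's test all the same (log2 2.52 ± 0.26 SE, adjusted p = 0.000150). FRZB, a soluble Frizzled-like Wnt binder first found in cartilage, was at 29.1, 36.9 and 20.8 FPKM (log2 1.08 ± 0.17 SE, adjusted p = 0.00106). DKK3, a divergent Dickkopf relative, was at 17.7, 21.0 and 15.3 FPKM (log2 0.43 ± 0.12 SE, adjusted p = 0.0142). All 3 were above the median gene and highest in replicate 2.

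SFRP2, a Frizzled-related protein of dermal cells, was at 11.2, 28.9 and 12.6 FPKM. Its mean of 17.6 ± 9.83 FPKM was not apart from the median gene (log2 0.27 ± 0.27 SE, limma adjusted p = 0.371), and without replicate 2 the difference was -0.14. SFRP1 was at 7.46, 8.68 and 5.36 FPKM and SFRP4 at 3.02, 4.28 and 1.49 FPKM, again highest in replicate 2 and both below the median gene (log2 -0.90 ± 0.15 and -2.26 ± 0.27 SE). DKK2, which binds LRP co-receptors, was under the minimum with 0.836, 2.66 and 1.26 FPKM and averaged 1.05 FPKM without replicate 2. SFRP5 had 8, 3 and 2 reads, and its mean of 0.178 FPKM was 0.109 without replicate 1. NOTUM, an enzyme that strips the lipid from Wnt proteins and is also a target of the pathway, differed from the rest: at 6.269, 6.001 and 6.100 FPKM it was the steadiest antagonist, and it was below the median gene (log2 -1.10 ± 0.09 SE, adjusted p = 4.23e-05). The summed antagonist level was 0.791, 1.29 and 0.691 times the summed ligand level, above 1 in replicate 2 alone.

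Inside the cell, CTNNB1 exceeded every other member. It encodes β-catenin, which also links cadherins to the cytoskeleton in epithelial junctions, and was at 236, 243 and 260 FPKM, 18.5-fold above the median gene (log2 4.21 ± 0.09 SE, limma adjusted p = 5.38e-07). GSK3B, the kinase that marks β-catenin, was at 32.4, 40.5 and 35.5 FPKM (log2 1.44 ± 0.10 SE, adjusted p = 2.94e-05), and CTNNB1 was 7.28, 6.01 and 7.33 times as high. AXIN2, a scaffold of the destruction complex that is itself a widely used target gene, was at 25.6, 25.1 and 25.8 FPKM and above the median gene (log2 0.94 ± 0.09 SE, adjusted p = 8.58e-05). Its paralog AXIN1, which is not counted among the targets, was at 14.8, 14.4 and 15 FPKM. The ratio of AXIN2 to AXIN1 was 1.73, 1.74 and 1.72, nearly the same in every library.

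At the minimum of 1 FPKM the other cytoplasmic members lay at or below the median gene. APC was at 13.8, 13.6 and 15.5 FPKM and the Dishevelled gene DVL1 at 14.9, 13.9 and 16.1 FPKM, and with AXIN1 they were not apart from it. With no minimum limma called APC, DVL1 and AXIN1 above it (log2 0.91, 0.978 and 0.958), and at 5 FPKM below it (-0.495, -0.426 and -0.447). DVL3 was at 8.868, 8.003 and 7.260 FPKM, below DVL1 in every library and below the median gene (log2 -0.72 ± 0.10 SE, limma adjusted p = 0.000625). NKD1, a feedback inhibitor that binds Dishevelled, was at 4.38, 5.78 and 5.37 FPKM and lower still (log2 -1.35 ± 0.11 SE, adjusted p = 5.50e-05).

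All 4 TCF/LEF genes measured, which encode the DNA-binding partners of β-catenin, were below the median gene at the minimum of 1 FPKM. TCF7 was the highest at 11.9, 10.6 and 8.58 FPKM (log2 -0.36 ± 0.12 SE, limma adjusted p = 0.0277), a call that was lost without replicate 3 (log2 -0.21, adjusted p = 0.192) and in edgeR's test on counts (adjusted p = 0.0569). TCF7L2 was at 6.13, 6.50 and 6.23 FPKM and TCF7L1, mostly a repressor, at 5.03, 7.53 and 4.82 FPKM. Their order by FPKM changed with the library, since TCF7L1 was the higher of the pair in replicate 2 only. By reads alone, on lengths of 1515 and 997 bases, TCF7L2 was higher than TCF7L1 in every library. LEF1, an activator used in hair and feather germs, had the lowest mean, with 4.77, 5.25 and 5.63 FPKM, but overlapped in range with TCF7L1, which was lower in replicate 3. Its ratio to TCF7 was 0.400, 0.495 and 0.656. The TLE genes, whose proteins are co-repressors held on DNA by TCF/LEF factors, were found under numbered identifiers for TLE1 at 5.25 ± 0.874, TLE2 at 9.11 ± 0.398 and TLE3 at 10.3 ± 1.85 FPKM, all below the median gene. The call of TLE3 was lost without replicate 1 (log2 -0.44, limma adjusted p = 0.0538) or replicate 2 (-0.21, 0.119). With no minimum, TCF7 (log2 0.441, limma adjusted p = 0.0222), TLE2 (0.269, 0.0391) and TLE3 (0.424, 0.0312) were above the median gene. The call of TCF7L1 was lost there (-0.405, 0.0665).

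**Figure D4:**
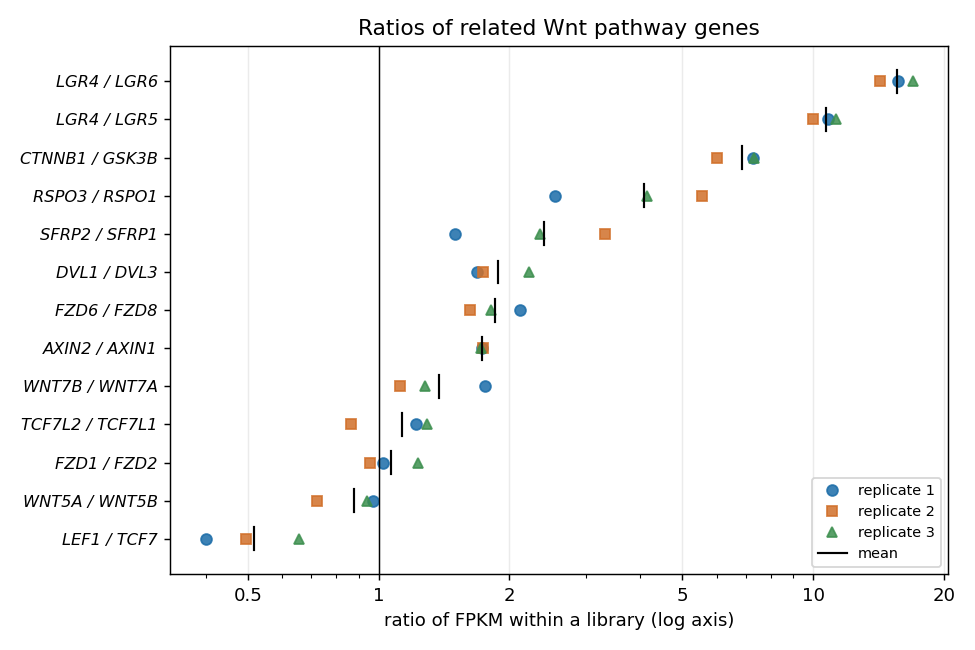
Ratio of FPKM between related Wnt pathway genes within each library (log axis); circles, squares and triangles are replicates 1, 2 and 3 and black ticks are means. AXIN2 to AXIN1 stays at 1.72 to 1.74, whereas SFRP2 to SFRP1 runs from 1.501 to 3.329 and TCF7L2 to TCF7L1 lies on either side of 1.

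Ratios between relatives are given as a description, with no test; an exact sign-flip permutation test over 3 libraries cannot give a p below 0.25. Of the 8 planned pairs with both genes measured, 5 had a ratio above 1 in 3 of 3 libraries, 2 were below 1 in all of them, and TCF7L2 to TCF7L1 was above 1 in 2. Among the 5, FZD6 to FZD8 was planned as the highest to the next highest Frizzled gene. The order of its means was thus fixed by that choice. WNT5A was lower than WNT5B by ratios of 0.971, 0.723 and 0.942. These ratios depend on the gene lengths in the authors' annotation. By reads alone WNT5A was higher than WNT5B in replicates 1 and 3, and LEF1 was higher than TCF7 in replicate 3. The ratio of SFRP2 to SFRP1 was 1.501, 3.329 and 2.357. Pairs added after the levels were seen gave 1.68, 1.74 and 2.21 for DVL1 to DVL3 and 1.76, 1.12 and 1.28 for WNT7B to WNT7A.

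Genes widely cited as transcriptional targets of the β-catenin branch stood at very different levels. Of 14 measured, of 18 listed, 5 were above the median gene, 8 were below it and 1 was under the minimum. Of the 13 tested, 38.5% were above and 61.5% below, beside 43.7% and 43.6% of all genes tested. So few genes do not set targets apart from other genes. Besides AXIN2, those above were the adhesion receptor gene CD44 at 87.3 ± 19.2, the cell cycle gene CCND1 at 42.2 ± 2.17, BAMBI, a decoy receptor for BMP and TGF-β signals, at 39.5 ± 5.06, and the TNF receptor family gene TNFRSF19 at 27.2 ± 7.31 FPKM. Below it were NOTUM, LEF1, NKD1, LGR5, ZNRF3, RNF43 and TCF7. EDAR, the receptor gene of the feather and hair placode, was also below the median gene, at 4.11 ± 0.850 FPKM. ZNRF3 and RNF43 encode ligases that remove Frizzled from the cell surface, and were at 3.30 ± 0.474 and 2.16 ± 0.676 FPKM. SALL4 was under the minimum at 0.285 ± 0.0725 FPKM. These genes answer to other signals as well, and their levels in 1 group do not measure pathway activity.

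Of 66 other pathway genes measured outside the 55, 23 were above the median gene, 27 below, 7 not apart and 9 under the minimum. Of the 57 tested, 40.4% were above and 47.4% below, near the 43.7% and 43.6% of all genes tested. At a minimum of 5 FPKM 13 were above and 22 below, beside 42.7% and 42.6% of all genes tested at that minimum. How many of the 66 were tested there was not counted, so no share is given. Among regulators at the receptor, APCDD1, a membrane inhibitor, was the highest at 40.3 ± 0.560 FPKM, followed by TPBG at 26.3 ± 2.91 and the glypican gene GPC4 at 22.5 ± 1.40. Among alternative receptors and polarity genes, RYK at 28.7 ± 2.76, PTK7 at 28.6 ± 2.42 and PRICKLE1 at 18.7 ± 2.77 FPKM were above the median gene. The ROR receptor genes ROR1 at 7.01 ± 0.508 and ROR2 at 3.25 ± 0.311 FPKM were below it. In the cytoplasm the casein kinase gene CSNK1A1, whose product primes β-catenin for GSK3β, was at 273 ± 19.5 FPKM, the β-catenin inhibitor gene CTNNBIP1 at 104 ± 5.99 and CSNK1E at 31.8 ± 0.396. Of the nuclear co-factors, CTBP1 at 73.1 ± 4.17, TBL1XR1 at 28.3 ± 1.73 and HIPK2 at 17.9 ± 1.13 FPKM led.

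Members differed in how much they varied between libraries. Medians differed between roles, which was not tested. The median SD of log2(FPKM + 0.1) over 3 libraries was 0.20 for the 45 members over the minimum and 0.17 for all 10605 genes. It was 0.41 for the 7 antagonists over the minimum, 0.25 for R-spondins and LGR receptors and 0.23 for Frizzled receptors. For ligands it was 0.23, for TCF/LEF factors 0.18 and for Dishevelled and destruction complex genes 0.10. Spread also differed within a role: among the 7 antagonists it ran from 0.03 for NOTUM to 0.75 for SFRP4. Replicate 2 was the highest library for 22 of the 45 (48.9%), beside 34.0% of all genes tested, and for 6 of the 7 antagonists, and the lowest for 16 (35.6%), beside 36.6%. Without replicate 2 the median SD was 0.13 for the members and 0.12 for all genes.

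**Figure D5:**
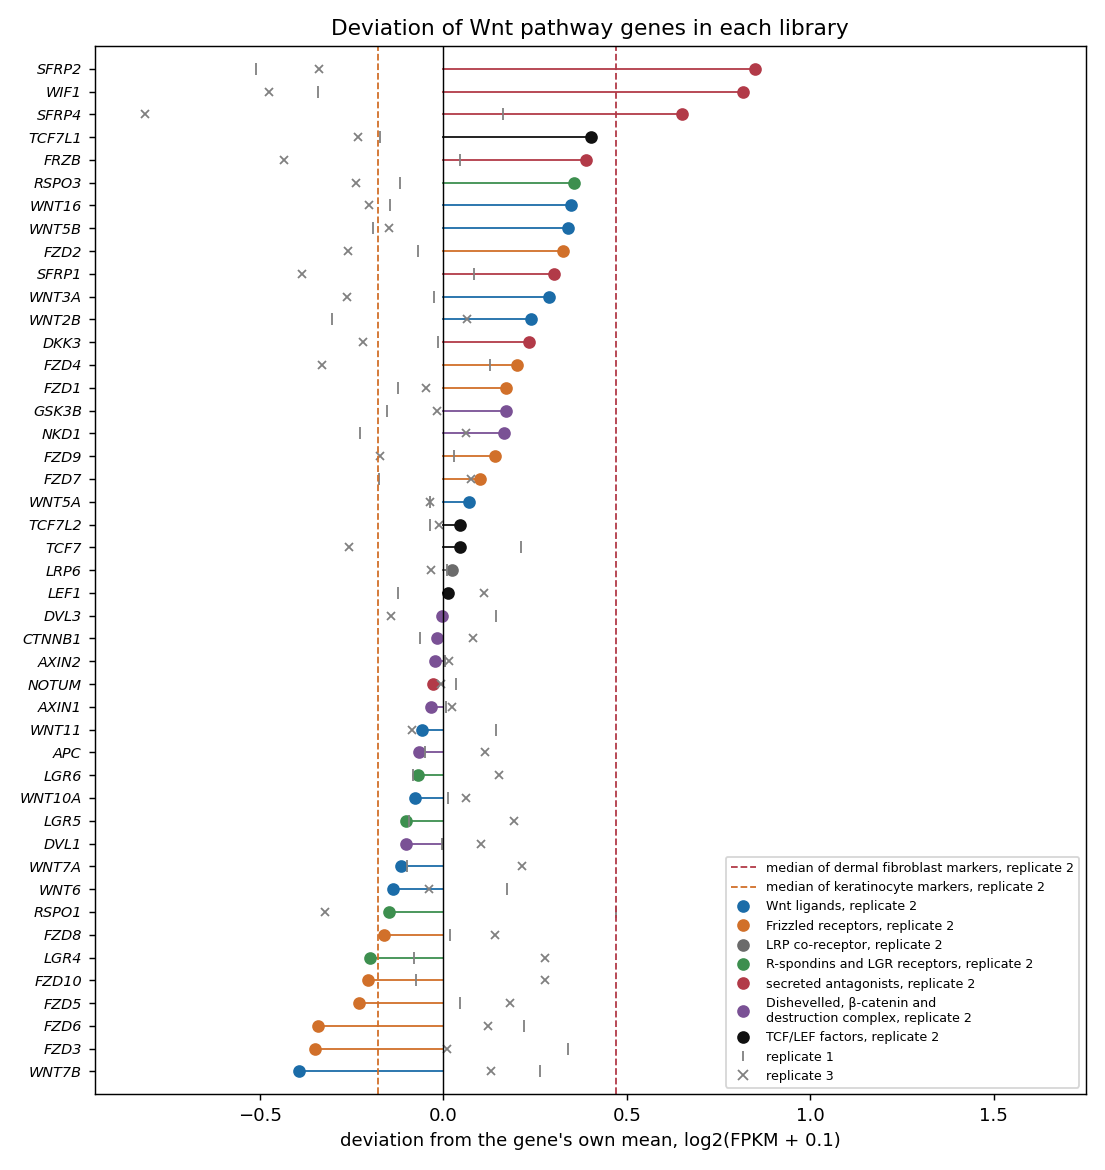
Deviation of each of the 45 tested Wnt pathway genes from its own mean, in log2(FPKM + 0.1); coloured points are replicate 2 by role, grey bars and crosses are replicates 1 and 3, and dashed lines are the medians of dermal fibroblast (0.47) and keratinocyte markers (-0.18) in replicate 2. SFRP2, WIF1 and SFRP4 lie farthest to the right and WNT7B, FZD3 and FZD6 farthest to the left.

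Members deviated in both directions in replicate 2. In that library 14 of the 45 were at least 0.2 above their own mean on the log2 scale and 5 at least 0.2 below it. The same count over all genes tested was not made, so no excess over them is claimed. The median deviation in replicate 2 was 0.024 for the 45 members and -0.0065 for all genes tested. The 14 were SFRP2 (0.85), WIF1 (0.82), SFRP4 (0.65), TCF7L1 (0.40), FRZB (0.39), RSPO3 (0.36), WNT16 (0.35), WNT5B (0.34), FZD2 (0.33), SFRP1 (0.30), WNT3A (0.29), WNT2B (0.24), DKK3 (0.23) and FZD4 (0.20). The 5 were WNT7B (-0.39), FZD3 (-0.35), FZD6 (-0.34), FZD5 (-0.23) and FZD10 (-0.20). Dermal fibroblast markers deviated in replicate 2 by a median of 0.47, with 18 of 19 highest there, and keratinocyte markers by -0.18, with 14 of 17 lowest there. The cartilage and bone markers summed to 115, 220 and 89.99 FPKM, highest in replicate 2, of which SPP1 held 48.7, 126.8 and 36.8 FPKM. Of the 8 over the minimum 6 were highest there, while SOX9 and HAPLN1 were highest in replicate 1. The smooth muscle and pericyte markers, at 143, 211 and 170 FPKM, were also highest in replicate 2. The Merkel cell sums of 204, 269 and 140 FPKM rested on CHGB (142, 188 and 99.6 FPKM) and CHGA (29.3, 52.4 and 16.5 FPKM). POU4F3 was also highest in replicate 2 (4.615, 6.957 and 3.575 FPKM), whereas SOX2, ISL1 and PIEZO2 were highest in replicate 1. The sensory neuron markers summed to 118, 121 and 66.5 FPKM. Of the white blood cell sums of 18.5, 29.6 and 22.7 FPKM, CD74 held 5.40, 14.5 and 5.67 FPKM. CD3D was also highest in replicate 2 (5.605, 6.487 and 6.345 FPKM), and LAPTM5 and BLNK were highest in replicate 3. The endothelial (165, 142 and 131 FPKM), skeletal muscle (93.6, 61.8 and 38.5 FPKM) and pigment cell (14.2, 13.3 and 13.3 FPKM) sums were highest in replicate 1. The Schwann and lamellar cell markers summed to 519, 910 and 543 FPKM, of which PMP22 (212, 441 and 256 FPKM) and MBP (182, 333 and 171 FPKM) held most, and the other 8 summed to 124.8, 135.8 and 115.8 FPKM. The part of these markers in the deviations of the Wnt pathway genes was not tested.

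Set against the marker sums, the spread of some members became smaller and that of most did not. With each level divided by the summed dermal fibroblast markers of its library, a step added after the data were seen, the SD fell for 11 of 45 members (24.4%), beside 10.8% of all genes tested, and for 5 of the 7 antagonists. WIF1 then made up 1.34, 1.68 and 1.17% of the fibroblast sum, with an SD of log2 values (here without a pseudocount) of 0.27 in place of 0.71, and SFRP2 0.249, 0.361 and 0.269%, with 0.28 in place of 0.75. TCF7L1 went from 0.36 to 0.12, WNT16 from 0.32 to 0.15 and WNT5B from 0.30 to 0.17. The median SD of members rose from 0.208 to 0.478, and that of all genes tested from 0.17 to 0.492. Dividing by a sum can by itself lower the SD of genes that follow it in replicate 2, and no cause was tested. Divided by the keratinocyte sum, the SD fell for 12 of 45 members (26.7%), beside 35.7% of all genes tested; that of FZD6 went from 0.30 to 0.17 and that of WNT7B from 0.35 to 0.22. Other members varied little between libraries. AXIN2 had an SD of 0.02, AXIN1 and LRP6 0.03, NOTUM 0.03 and TCF7L2 0.04 on the log2(FPKM + 0.1) scale, against a median of 0.17 for all genes.

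Some Wnt genes lie side by side in the genome. In the gene order of RefSeq's IASCAAS_PekinDuck_T2T assembly, with no other protein-coding gene between them, WNT6 lies beside WNT10A, WNT3A beside WNT9A, and WNT9B beside WNT3. WNT10A was at 29.3 to 32.3 FPKM and WNT6 at 9.62 to 11.96 FPKM, both in the upper part of the ligand order. WNT3A at 2.10 and WNT9A at 0.619 FPKM, and WNT9B at 0.419 and WNT3 at 0.439 FPKM, were all low. No source used here names the assembly behind the authors' table, so the order of genes is RefSeq's alone.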

How the data were processed

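Bill skin poly(A) RNA of 3 biological replicates was sequenced from strand-specific KAPA mRNA Hyper Prep libraries, per the labels' protocols. The authors deposited whole-number counts and FPKM for every gene, according to the column headers. Tools listed, per the submitters' processing notes, are edgeR 3.22.3, STAR 2.5.4b, Subread 1.6.2 with featureCounts, CASAVA 1.8.2 and Trimmomatic 0.36, with no role or setting. No source used here names the genome build, the annotation or whether counting used strand, so antisense partners cannot be told apart. The lengths implied by counts and FPKM were whole numbers (within 0.01 bases) for 100% of genes with reads when edgeR's TMM factors were applied, so the deposited FPKM carry them. Libraries held 32247700, 30630039 and 25268141 reads, and limits from 3 reads cover counting error only.

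Levels are FPKM; log2(FPKM + 0.1) minus the median of its library was tested against 0 with limma 3.58.1 (R 4.3.3), two-sided, over the 10605 genes reaching 1 FPKM in each library, with Benjamini-Hochberg adjustment over all of them. This scale understates differences of low genes. P-values measure the spread between these 3 samples, with the variance of each gene moderated toward that of all genes tested. The SE of a steady gene can therefore exceed its own SD: AXIN2 had an SD of 0.02 and an SE of 0.086. Alternatives used edgeR 4.0.16 and DESeq2 1.42.0 size factors. Fits were tested on simulated data. Of 3347 numbered identifiers, 781 took a symbol from RefSeq, assembly IASCAAS_PekinDuck_T2T. The search of promoters for TCF/LEF motifs was not run. Members and lists were chosen with earlier results of these data known. Named are members of at least 10 FPKM, the leading members of each role and pair, and the 3 highest genes of each other list; other members were named to account for all of them. Values of near-identical or overlapping genes can be uncertain. Figures were drawn with matplotlib 3.10.9.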

Additional observations from a re-analysis of the deposited data

How the results depend on the processing

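No paired analysis was possible because there is 1 group. Pseudocounts of 1 and 0.01, limma with a trend, FPKM without TMM factors and FPKM with DESeq2 size factors changed no member's call, and edgeR's test on counts lost WNT6 and TCF7. Leaving out 1 library gave 12 to 12 members above the median gene and 19 to 22 below. Of all genes tested, 41.6 to 43.1% were then above and 41.2 to 43.1% below. The median SD of members with 1 library left out was 0.134 to 0.214. The minimum changes which gene is the median. With no minimum 25 members were above it, beside 44.5% of all genes tested. With a minimum of 0.1 FPKM 19 were above, beside 44%, and with 1 FPKM 12 were above, beside 43.7%. With 5 FPKM 11 members were above and 21 below, beside 42.7% and 42.6% of all genes tested there. At 5 FPKM 13 other pathway genes were above and 22 below, against 23 and 27 at 1 FPKM. With no minimum the log2 differences that changed sign were 0.087 for DVL3, 0.793 for FZD1, 0.736 for FZD10, 0.702 for FZD2, 0.716 for FZD4, 0.601 for FZD5, 0.0611 for FZD7, 0.336 for RSPO3, 0.441 for TCF7, 0.483 for WNT6, 0.0442 for WNT7B, 0.31 for WNT4, 0.269 for TLE2 and 0.424 for TLE3. At 0.1 FPKM they were 0.386 for FZD1, 0.328 for FZD10, 0.0335 for TCF7, 0.0755 for WNT6, 0.0164 for TLE3 and, not apart in either case, 0.295 for FZD2, 0.309 for FZD4 and 0.194 for FZD5. At 5 FPKM they were -0.495 for APC, -0.447 for AXIN1, -0.174 for DKK3, -0.426 for DVL1, -0.518 for FZD9, -0.414 for WNT11, -0.117 for PRICKLE1, -0.167 for HIPK2 and, not apart in either case, -0.33 for SFRP2. With no minimum, TCF7, WNT6, TLE2 and TLE3 went from called below to called above (limma adjusted p = 0.0222, 0.00842, 0.0391 and 0.0312). FZD1, FZD2, FZD4, FZD5, FZD9, FZD10, WNT11, DVL1, APC and AXIN1 were not apart at 1 FPKM. Limma called each of them above with no minimum and below at 5 FPKM. The cause of these changes is the reference by construction, at 13.2, 7.54, 10.04 and 20.1 FPKM with a minimum of 1, none, 0.1 and 5. Divided by fibroblast marker sums, the median SD of members was 0.478, as the sums themselves vary; divided by keratinocyte marker sums it was 0.224. Genes with few reads (WNT1, WNT8A, WNT8B, SFRP5) are limited by depth.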
